A study of Homo sapiens with 6 samples.

Results

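Collagens, laminins and integrins were examined in HEC-1B cells, a human endometrial carcinoma line, by RNA sequencing of 6 libraries. The genes were chosen by symbol alone: every collagen chain, laminin chain or integrin subunit whose symbol follows the pattern COL, a number, A and a number, or LAMA, LAMB, LAMC, ITGA or ITGB and a number, together with ITGAV. This gave 75 of 23284 symbols, of which 43 are collagens, 12 laminins and 20 integrins. A gene was called expressed at 1 FPKM (fragments per kilobase, a level scaled for transcript length and library size) or more in at least 2 libraries. By that rule 31 of the 75 were expressed (10 collagens, 8 laminins and 13 integrins) and 44 were silent, beside 12135 expressed symbols in all.

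Collagens are triple-helical proteins that form the fibrils, networks and anchoring structures of the extracellular matrix. Laminins are cross-shaped trimers of an alpha, a beta and a gamma chain, and with type IV collagen they build the basement membrane on which epithelia, the endometrial glands included, rest. Integrins are heterodimers of an alpha and a beta subunit that bind these ligands at the cell surface and link them to actin.

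There were 3 groups of 2 libraries, all from HEC-1B cells, with no drug, transgene or deletion named in the labels. High-potential accelerated cells are labelled as having high ALDH (aldehyde dehydrogenase) potential and an accelerated passage into the ALDH-high state. Parental accelerated cells (parental cells for short) carry the second label only, and high-to-low cells are labelled as having gone from ALDH-high to low. The design text says that flow sorting was used to establish whether the acceleration was present. The short descriptions of the high-to-low libraries also read ALDH-high, and no source says whether replicates were separate cultures, so p-values here reflect only library-to-library spread, possibly technical. The high-potential label and the transition cannot be told apart in the comparison with high-to-low cells, since there is no high-potential high-to-low group. How the high-potential cells were obtained is not given in the sources used here.

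Depth, estimated from the lowest values, was lowest in high-potential replicate 2, at 0.809 of that in replicate 1. A fragment on a 1 kilobase transcript came to about 0.093 to 0.126 FPKM. RNA of the aldehyde dehydrogenase gene ALDH1A1 set parental accelerated replicate 1 apart from replicate 2 of its group. It was 26.7 FPKM in replicate 1 and 317 in replicate 2, against 28.4 and 9.44 in high-to-low and 353 and 304 in high-potential cells. Parental accelerated replicate 1 correlated most with high-to-low replicate 1 (Pearson r of log2 values across genes 0.964, against 0.932 with its own replicate). Parental accelerated replicate 2 likewise correlated most with high-to-low replicate 2 (0.948), so neither parental library was closest to its own group. Genes are not independent replicates. Of the epithelial markers EPCAM, KRT8, KRT18, KRT19 and CDH1, the E-cadherin gene CDH1 was at or near 0 in every library and the summed level was 408 to 589.9 FPKM, most of it KRT18. KRT8 was 49.4 and 47.1 FPKM in high-potential cells and 90.6 to 108 in the other 4 libraries (limma adjusted p = 0.0863 and 0.0730). EPCAM was 3.49 and 2.16 there and 4.43 to 10.6 in the others. KRT18 and KRT19 did not separate the groups. KRT18 was 350 and 331 FPKM in high-potential cells and 291 to 464 in the others. KRT19 was 46.1 and 27.1 FPKM in high-potential cells and 16.9 to 44.6 in the others. Of 6 fibroblast markers, DCN and FAP were listed at 0 throughout and only THY1 reached 1 FPKM, with sums of 155 and 109 in high-potential, 297 and 8.17 in parental and 314 and 273 in high-to-low cells. Endothelial markers summed to at most 1.07, leukocyte markers to at most 2.40 and smooth muscle markers to 2.70 and 3.22 FPKM in high-potential cells, against 0.669 to 1.54 in the other 4 libraries. The part of KRT8, EPCAM, THY1 and the smooth muscle marker DES in the results was not tested, and in bulk RNA fewer cells of a type and less RNA per cell cannot be told apart.

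None of the 31 expressed genes passed limma's test at an adjusted p under 0.05 in any of the 3 comparisons of groups. That test ran on log2(FPKM + 1) over all expressed symbols, so differences of low genes are understated. It called 0.494% of all symbols between high-potential and parental accelerated cells, 0.799% between high-potential and high-to-low cells, and 0.0165% between parental and high-to-low cells. At an unadjusted p under 0.05 the counts were 11, 12 and 0 of 31, where 14.3%, 18.4% and 0.972% of all symbols reached it. Without high-potential replicate 1 the first 2 counts were 6 and 6 of 29 (10.0% and 12.5% of all symbols), and without replicate 2 they were 8 and 5 of 28 (7.63% and 10.2%). Without parental accelerated replicate 1 the first count was 10 of 30 (12.2%) and the third 5 of 30 (6.84%). Both high-potential libraries lay above the other 4 libraries for 7 of 31 genes and below them for 9, against 15.3% and 17.5% of all symbols, 32.8% together. COL7A1 and LAMC3 reached 1 FPKM in high-potential cells alone, so their place among the expressed genes followed from their being high there. COL4A5, COL9A3, COL24A1, LAMA2, LAMB3, ITGA2, ITGA7 and ITGB2 stayed below 1 FPKM in both high-potential libraries. They were thus expressed only through libraries of the other groups. For all of these genes the tests between high-potential and other cells are descriptions, and the counts given here include these genes. Levels in each library are shown in the plot by family.

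**Figure D1:**
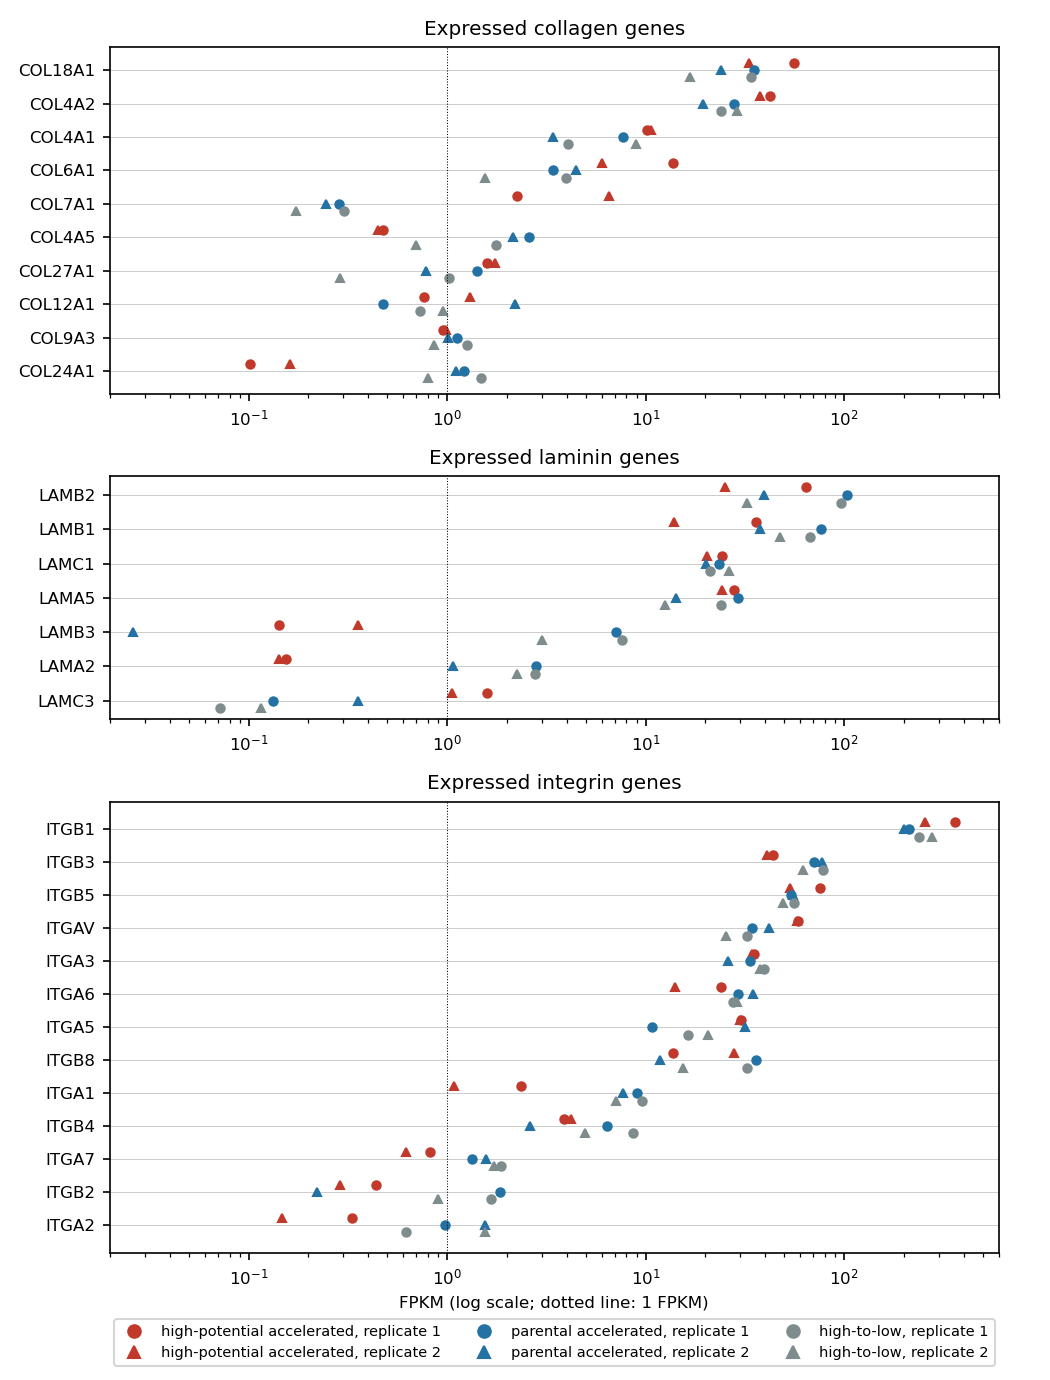
FPKM of the expressed collagen, laminin and integrin genes reported here in each library, on a log scale, with circles for replicate 1 and triangles for replicate 2 of the 3 groups. The high-potential libraries lie apart from the other 4 at COL7A1, COL24A1, LAMA2, LAMC3, ITGA1 and ITGAV, while at LAMB2 the replicates of each group lie farther apart than the groups.

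Among the collagens, the basement membrane and its neighbours held most of the signal. COL18A1, which encodes a basement membrane collagen whose end fragment is endostatin, and COL4A2, a type IV chain, made up 58.9 to 77.1% of the summed collagen FPKM in each library. The 11 fibrillar collagens together summed to only 1.63 to 3.40 FPKM. COL18A1 was 55.7 and 33.1 FPKM in high-potential, 35.0 and 24.0 in parental and 33.9 and 16.8 in high-to-low cells. These groups overlap.

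COL4A1 and COL4A2 encode the chains of the common type IV collagen network, a trimer with a pair of alpha 1 chains and an alpha 2 chain. COL4A2 was 42.2 and 37.5 FPKM in high-potential, 27.8 and 19.4 in parental and 23.9 and 28.8 in high-to-low cells. COL4A1 was 10.1 and 10.6, 7.66 and 3.40, and 4.08 and 8.98 FPKM in the same order. Both high-potential libraries were thus above the other 4 for both genes, and the COL4A2 transcript was 3.21 to 5.86 times as abundant per length as COL4A1 in every library. For COL4A2 the log2 difference was 0.75 against parental accelerated cells (SE 0.235 and limma adjusted p = 0.224) and 0.58 against high-to-low cells (SE 0.235 and limma adjusted p = 0.265). For COL4A1 it was 0.88 (SE 0.434 and limma adjusted p = 0.429) and 0.67 (SE 0.434 and limma adjusted p = 0.468). Without parental accelerated replicate 1 the first difference of COL4A2 was 1.002 and that of COL4A1 was 1.37, and without replicate 2 they were 0.50 and 0.39. The second difference of COL4A1 was 0.19 without high-to-low replicate 1 and 1.16 without replicate 2.

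The type IV genes lie in 3 head-to-head pairs that are transcribed away from a shared stretch, and the pairs stood at different levels. COL4A5 was above its partner COL4A6 in each library, at 0.476 and 0.447 FPKM in high-potential, 2.59 and 2.14 in parental and 1.76 and 0.694 in high-to-low cells, while COL4A6 reached at most 0.267. The high-potential libraries were below the other 4 for COL4A5, with a log2 difference of -1.20 against parental accelerated cells (SE 0.303 and limma adjusted p = 0.163) and -0.57 against high-to-low cells (SE 0.303 and limma adjusted p = 0.384). Without high-to-low replicate 1 the second was -0.21, and without replicate 2 it was -0.92. These values are a description, since COL4A5 reached 1 FPKM only in the other groups. In the pair of COL4A3 and COL4A4, chains of the kidney and lung basement membranes, neither exceeded 0.187 FPKM. COL4A5 and COL4A2, both type IV chains, thus had differences of opposite sign between high-potential and other cells.

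The promoter stretches of these pairs are printed to show what the co-expressed pair and the other pairs have between them. In the RefSeq annotation (GRCh38.p14), the starts of COL4A1 and COL4A2 are 126 bases apart on chromosome 13, those of COL4A4 and COL4A3 are 418 apart on chromosome 2, and those of COL4A6 and COL4A5 are 379 apart on chromosome X. The first sequence is the whole stretch between the COL4A1 and COL4A2 starts (chr13:110307158-110307283), and the others are the 250 bases before the starts of COL4A3 (chr2:227164374-227164623) and COL4A5 (chrX:108439588-108439837), all on the plus strand. Capitals mark the GC box GGGCGG and the CCAAT box CCAAT on either strand, which do not overlap here.
COL4A1 to COL4A2: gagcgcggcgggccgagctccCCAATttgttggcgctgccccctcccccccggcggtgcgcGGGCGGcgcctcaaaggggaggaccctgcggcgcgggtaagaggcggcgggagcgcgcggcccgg
COL4A3: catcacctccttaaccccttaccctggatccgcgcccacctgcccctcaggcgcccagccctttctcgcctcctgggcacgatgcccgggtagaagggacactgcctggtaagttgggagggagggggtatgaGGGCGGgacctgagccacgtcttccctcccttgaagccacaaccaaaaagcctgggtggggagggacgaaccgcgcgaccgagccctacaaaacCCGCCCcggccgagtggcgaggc
COL4A5: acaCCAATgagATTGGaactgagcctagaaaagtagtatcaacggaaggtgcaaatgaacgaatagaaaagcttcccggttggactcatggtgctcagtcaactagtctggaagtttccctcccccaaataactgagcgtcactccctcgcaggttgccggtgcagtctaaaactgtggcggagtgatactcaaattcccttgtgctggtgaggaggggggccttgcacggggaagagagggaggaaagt

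The COL4A1 to COL4A2 stretch was 80.2% G and C and held 1 GC box and 1 CCAAT box. The COL4A3 window was 66.4% G and C and held 2 GC boxes, and the COL4A5 window was 51.2% G and C and held 2 CCAAT boxes, in opposite directions. None held the TATA box TATAAA. Among all 35116 promoters, windows of 126 bases held a GC box in 34.6%, a CCAAT box in 21.1% and a TATA box in 5.87% of cases. At 250 bases the shares were 42.6%, 32.0% and 10.7%. Over the families, 16 of 22 expressed genes with a RefSeq promoter held a GC box in the 250 bases before the start, and 14 of 32 silent genes did. Their median G and C content was 67.2% and 64.8%, against 58% over all promoters. A match is a string of letters and was not tested as a binding site.

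**Figure D2:**
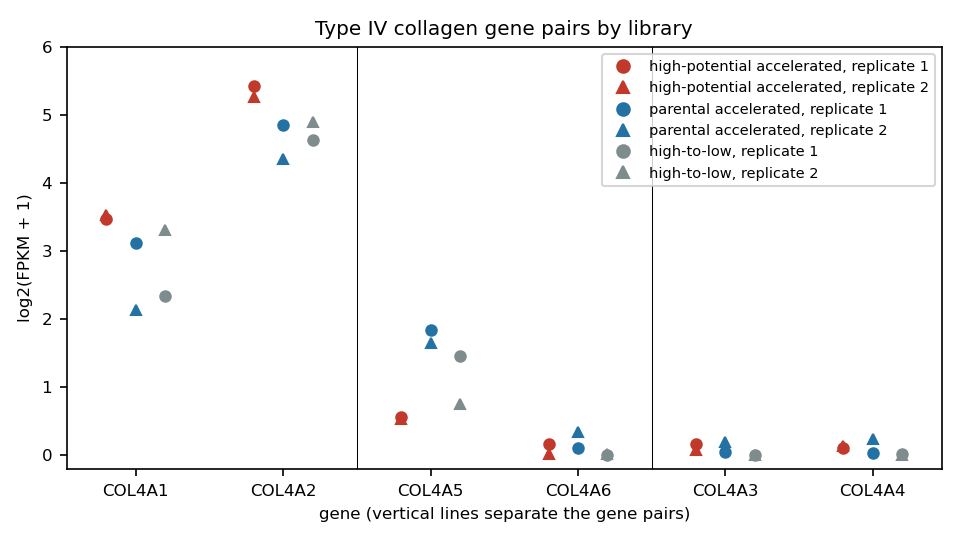
log2(FPKM + 1) of the 6 type IV collagen genes in each library, arranged by head-to-head pair, with colours for the groups and circles and triangles for replicates 1 and 2. COL4A1 and COL4A2 are expressed in every library, COL4A5 in 3 of 6, and COL4A3, COL4A4 and COL4A6 in none.

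COL7A1, COL6A1 and COL24A1 completed the collagens that differed at an unadjusted p under 0.05. COL7A1, the anchoring fibril collagen that ties epithelial basement membranes to the stroma beneath, was 2.25 and 6.56 FPKM in high-potential cells and 0.174 to 0.302 in the other 4. Its mean was 4.41 ± 3.05 (SD, n = 2), against 0.264 ± 0.0270 in the parental accelerated and 0.238 ± 0.0910 in the high-to-low group. The log2 difference was 1.97 (SE 0.413 and limma adjusted p = 0.116) and 2.004 (SE 0.413 and limma adjusted p = 0.0862). COL7A1 entered the test through the group where it is high, so these values are a description. COL6A1, a chain of the beaded filament collagen VI, was 13.8 and 6.03, 3.40 and 4.45, and 3.98 and 1.55 FPKM, with a log2 difference of 1.52 against high-to-low cells (SE 0.462 and limma adjusted p = 0.169). Without high-potential replicate 1 that difference was 0.98. Its obligate partners were silent, COL6A2 at up to 0.225 FPKM and COL6A3 at 0 throughout.

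COL24A1, a fibrillar collagen of the developing skeleton and eye, ran the other way. It was 0.101 and 0.161 FPKM in high-potential, 1.21 and 1.11 in parental and 1.48 and 0.803 in high-to-low cells, so the high-potential libraries lay below the other 4 while those overlapped each other. The log2 differences of -0.93 and -0.90 (SE 0.265) had limma adjusted p values of 0.192 and 0.158. They are a description, since COL24A1 entered the test only through the groups where it is high. COL27A1, another fibrillar collagen, was 1.59 and 1.74 in high-potential cells and 0.289 to 1.42 in the others. COL12A1 and COL9A3, which decorate fibrils, lay between 0.474 and 2.19 and between 0.854 and 1.26 FPKM. Groups overlapped for both, except that COL9A3 was lower in both high-potential libraries than in the parental ones.

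Laminin transcripts were mostly those of the alpha 5, beta 1, beta 2 and gamma 1 chains. LAMA5, the alpha chain of most adult epithelial basement membranes, was 27.9 and 24.2 FPKM in high-potential, 29.03 and 14.3 in parental and 23.8 and 12.5 in high-to-low cells. LAMC1, the gamma chain of most laminins, held the narrowest range of these chains, at 24.2 and 20.4, 23.3 and 20.1, and 21.2 and 26.3 FPKM. Its log2 differences from the other groups were 0.04 and -0.08 (SE 0.209 and limma adjusted p = 0.964 and 0.871). The beta chains were in excess per length: their summed FPKM was 1.72 to 7.77 times that of the gamma chains, while the alpha sum was 0.522 to 1.33 times the gamma sum.

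LAMB1 was 36.1 and 13.8 FPKM in high-potential, 76.3 and 37.6 in parental and 67.0 and 47.6 in high-to-low cells. The high-potential libraries were the lowest, at a log2 difference of -1.22 against parental accelerated cells (SE 0.514 and limma adjusted p = 0.357) and -1.29 against high-to-low cells (SE 0.514 and limma adjusted p = 0.258). Without high-potential replicate 2 these were -0.56 and -0.63, without replicate 1 they were -1.88 and -1.95, and without parental accelerated replicate 1 the first was -0.72. LAMB2, found in the basement membranes of muscle, synapse and kidney as well as epithelia, was 64.0 and 25.2, 103 and 39.4, and 96.0 and 32.5 FPKM. In each group replicate 1 was the higher, and the differences between groups, -0.65 and -0.47 (SE 0.707 and limma adjusted p = 0.745 and 0.778), were within that spread, and without high-potential replicate 2 they turned to 0.0013 and 0.19.

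**Figure D3:**
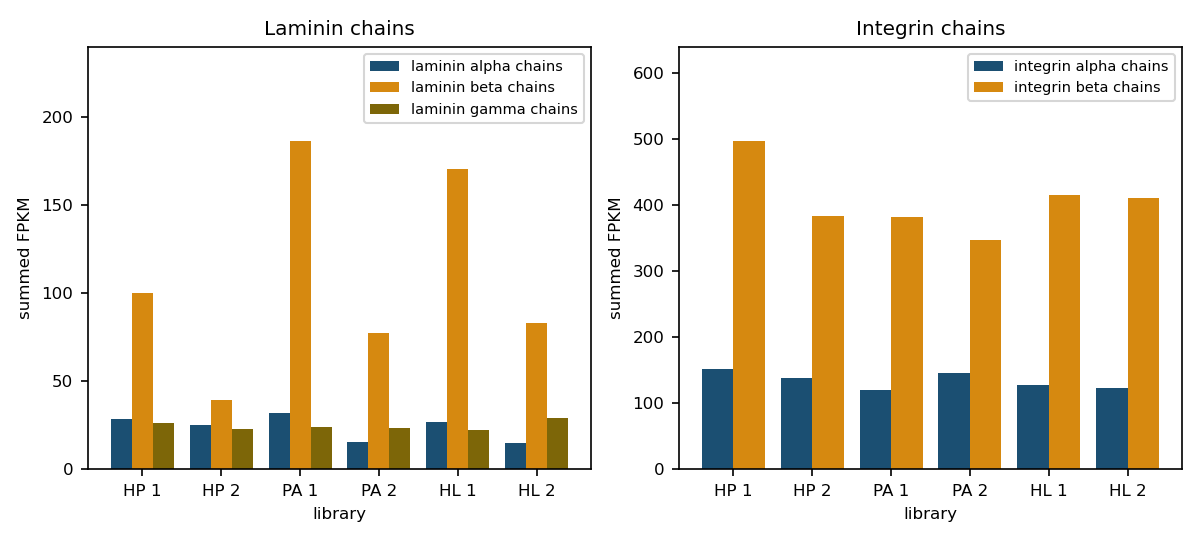
Summed FPKM of the alpha, beta and gamma chains of laminin (left) and the alpha and beta subunits of integrins (right) in each library (HP, high-potential accelerated; PA, parental accelerated; HL, high-to-low; 1 and 2, replicates), with bars from 0. The laminin beta sum runs from 39.4 to 187 while the gamma sum stays between 22.3 and 28.9, and the integrin beta sum is above the alpha sum in each library.

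LAMA2, LAMB3 and LAMC3 are less abundant chains that, like LAMB1, had an unadjusted limma p under 0.05 in a comparison with high-potential cells. LAMA2, the alpha chain of muscle and nerve laminin, was 0.153 and 0.143 FPKM in high-potential, 2.81 and 1.07 in parental and 2.78 and 2.26 in high-to-low cells. The high-potential mean was 0.148 ± 0.00761 (SD, n = 2), and the log2 difference was -1.29 (SE 0.339 and limma adjusted p = 0.177) and -1.61 (SE 0.339 and limma adjusted p = 0.0886). Without parental accelerated replicate 1 the first of these was -0.85. LAMA2 entered the test only through the other groups, where it is high, so these values are a description. LAMC3, a gamma chain of nerve, retina and reproductive tissues, was 1.59 and 1.05 FPKM in high-potential, 0.133 and 0.356 in parental and 0.0719 and 0.116 in high-to-low cells. Its log2 differences were 0.90 (SE 0.263 and limma adjusted p = 0.202) and 1.08 (SE 0.263 and limma adjusted p = 0.115). LAMC3 also entered the test through the group where it is high, so these values are a description.

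LAMB3 encodes a beta chain of the laminin that anchors epithelia at hemidesmosomes, whose alpha chain gene LAMA3 stayed at or below 0.796 FPKM. LAMB3 was 0.142 and 0.353 FPKM in high-potential and 7.57 and 3.002 in high-to-low cells, a log2 difference of -2.24 (SE 0.924 and limma adjusted p = 0.272). That difference is a description, since LAMB3 reached 1 FPKM only in the other groups. The parental accelerated libraries were split, at 7.08 in replicate 1 and 0.0261 in replicate 2, so that replicate 1 lay within the high-to-low range and replicate 2 below both high-potential libraries.

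Integrins were the most abundant of these genes, led by ITGB1, the beta subunit shared by most collagen, laminin and fibronectin receptors. ITGB1 was 359.9 and 257 FPKM in high-potential, 213 and 200.2 in parental and 238 and 277 in high-to-low cells, and held 55.8 to 72.3% of the summed beta subunit FPKM. Its log2 differences were 0.55 against parental accelerated cells (SE 0.233 and limma adjusted p = 0.356) and 0.24 against high-to-low cells (SE 0.233 and limma adjusted p = 0.632), the latter with overlapping groups. Without high-potential replicate 1 the first was 0.31. ITGB5, which pairs with ITGAV to bind vitronectin, was 75.6 and 53.5, 54.3 and 55.3, and 56.0 and 49.2 FPKM.

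ITGAV and ITGB3, the subunits of the classical vitronectin receptor, had differences of opposite sign. ITGAV was 58.3 and 57.8 FPKM in high-potential, 34.2 and 41.8 in parental and 32.2 and 25.3 in high-to-low cells. Its log2 difference was 0.61 against parental accelerated cells (SE 0.205 and limma adjusted p = 0.262) and 0.997 against high-to-low cells (SE 0.205 and limma adjusted p = 0.0862). ITGB3 was 44.0 and 41.0, 70.1 and 77.6, and 78.2 and 62.2 FPKM, with log2 differences of -0.78 and -0.70 (SE 0.193 and limma adjusted p = 0.157 and 0.140). The ratio of ITGAV to ITGB3 FPKM was therefore 1.33 and 1.41 in high-potential cells and 0.407 to 0.539 in the other 4. That pair was chosen for the ratio after its values were seen, so the ratio is a description.

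The collagen receptor subunits ITGA1 and ITGA2 were lowest in high-potential cells. ITGA1, which favours type IV collagen, was 2.36 and 1.08 FPKM there, 9.01 and 7.70 in parental and 9.53 and 7.12 in high-to-low cells. Its group means were 1.72 ± 0.903, 8.35 ± 0.923 and 8.32 ± 1.70 (SD, n = 2), and the log2 difference was -1.82 (SE 0.302 and limma adjusted p = 0.0790) and -1.81 (SE 0.302 and limma adjusted p = 0.0647). ITGA2, which favours fibrillar collagen, was 0.332 and 0.147, 0.969 and 1.55, and 0.619 and 1.55 FPKM, with a log2 difference of -0.86 from parental accelerated cells (SE 0.318 and limma adjusted p = 0.299). As ITGA2 entered the test only through the other groups, this difference is a description.

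Of the laminin receptor subunits, ITGA6 and ITGA7 were below all other libraries in the high-potential cells and ITGA3 was not. ITGA6 was 24.1 and 14.1 FPKM in high-potential, 29.3 and 34.6 in parental and 27.7 and 28.8 in high-to-low cells (log2 difference from the parental accelerated group -0.75, SE 0.275 and limma adjusted p = 0.291). Without high-potential replicate 2 that difference was -0.39. ITGA7, known best from muscle, was 0.816 and 0.620, 1.33 and 1.56, and 1.86 and 1.72 FPKM (log2 difference from the high-to-low group -0.70, SE 0.231 and limma adjusted p = 0.193). As ITGA7 entered the test only through the other groups, its difference is a description. ITGA3 was 35.3 and 34.2, 33.5 and 26.1, and 39.5 and 37.6 FPKM. ITGB4, the hemidesmosome partner of ITGA6, lay between 2.60 and 8.59 FPKM with the parental accelerated libraries at either side of the high-potential ones.

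ITGA5, the fibronectin receptor subunit, was 30.2 and 30.0 FPKM in high-potential, 10.8 and 31.8 in parental and 16.3 and 20.7 in high-to-low cells, so the parental accelerated libraries span the others. ITGB8, which binds latent TGF-beta with ITGAV, was 13.7 and 28.0, 35.8 and 11.8, and 32.4 and 15.4 FPKM so that replicates of a group differed by more than the group means did. ITGB2, the leukocyte beta subunit, stayed between 0.222 and 1.84 FPKM.

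**Figure D4:**
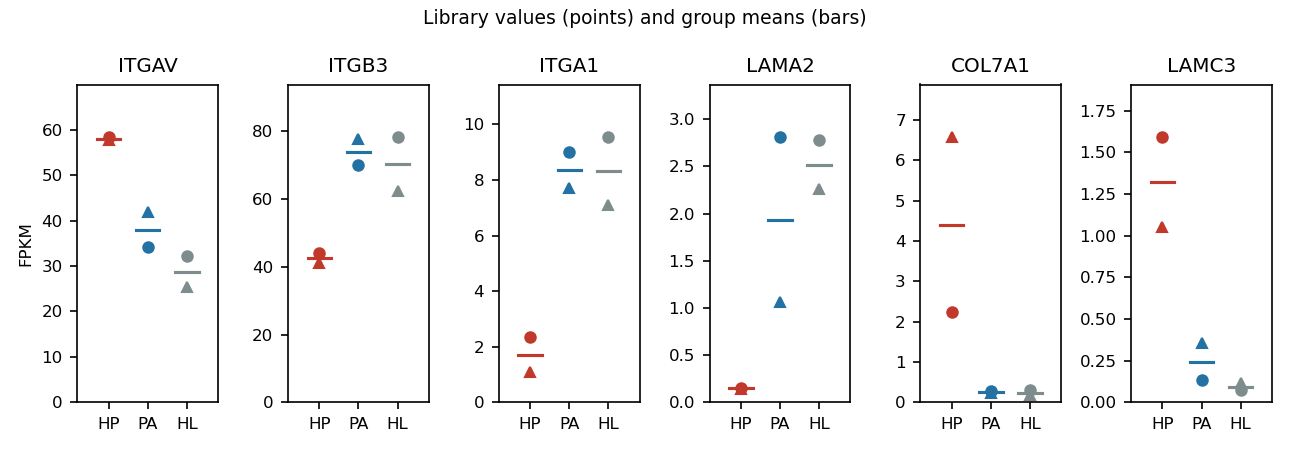
FPKM of 6 genes in each library (HP, high-potential accelerated; PA, parental accelerated; HL, high-to-low), with circles and triangles for replicates 1 and 2 and bars for group means; each panel has its own axis from 0. ITGAV, COL7A1 and LAMC3 are highest and ITGB3, ITGA1 and LAMA2 lowest in both high-potential libraries.

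By family, the median log2 difference between high-potential and parental accelerated cells was 0.46 for the 10 collagens, -0.48 for the 8 laminins and -0.07 for the 13 integrins, beside 0.00498 for all symbols. Without parental accelerated replicate 1 the median over all expressed members moved from -0.06 to 0.17, and the differences of LAMB3, LAMB2, ITGB8 and ITGB4 turned from -1.21, -0.65, -0.07 and -0.03 to 0.28, 0.03, 0.69 and 0.49. That of ITGA5 turned the other way, from 0.66 to -0.08. Against high-to-low cells the medians were 0.63, -0.44 and -0.58, beside -0.01 for all symbols. The 2 comparisons share the high-potential libraries. Libraries did not overlap for 19 of 31 genes in the first comparison (9 above, 10 below), where 43.4% of all symbols did so (21.1% and 22.3%). In the second they did not overlap for 22 of 31 (9 above, 13 below), against 51.1% (24.7% and 26.4%). Within groups, replicates of the expressed genes differed by a median of 0.22 on the log2 scale in the high-potential, 0.37 in the parental accelerated and 0.38 in the high-to-low group.

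Parental accelerated and high-to-low cells, which share the cell label and differ in the transition, had 0 of 31 genes at an unadjusted limma p under 0.05 and 0 passing. Each adjusted p was 1. For 7 of 31 genes the libraries of these groups stood apart, against 24.1% of all symbols (11.4% above and 12.7% below). ITGAV, ITGA6, COL4A5 and LAMC3 (4 genes) were higher in both parental accelerated libraries, and ITGA3, ITGB1 and ITGA7 (3 genes) lower. The differences of these genes ran from -0.37 for ITGA3 to 0.64 for COL4A5 on the log2 scale. For ITGA1 the difference was 0.01 and for COL7A1 0.03 (SE 0.302 and 0.413). Parental accelerated replicate 1, with ALDH1A1 in the high-to-low range, weighed on this comparison. Without it the differences of LAMB3, ITGB4, LAMA2 and ITGA3 were -2.51, -1.07, -0.76 and -0.55, against -1.02, -0.55, -0.32 and -0.37 with it. That of ITGA5 was 0.76 against 0.02. Without parental accelerated replicate 2 instead, these genes were at 0.47, -0.04, 0.12, -0.20 and, for ITGA5, -0.72.

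**Figure D5:**
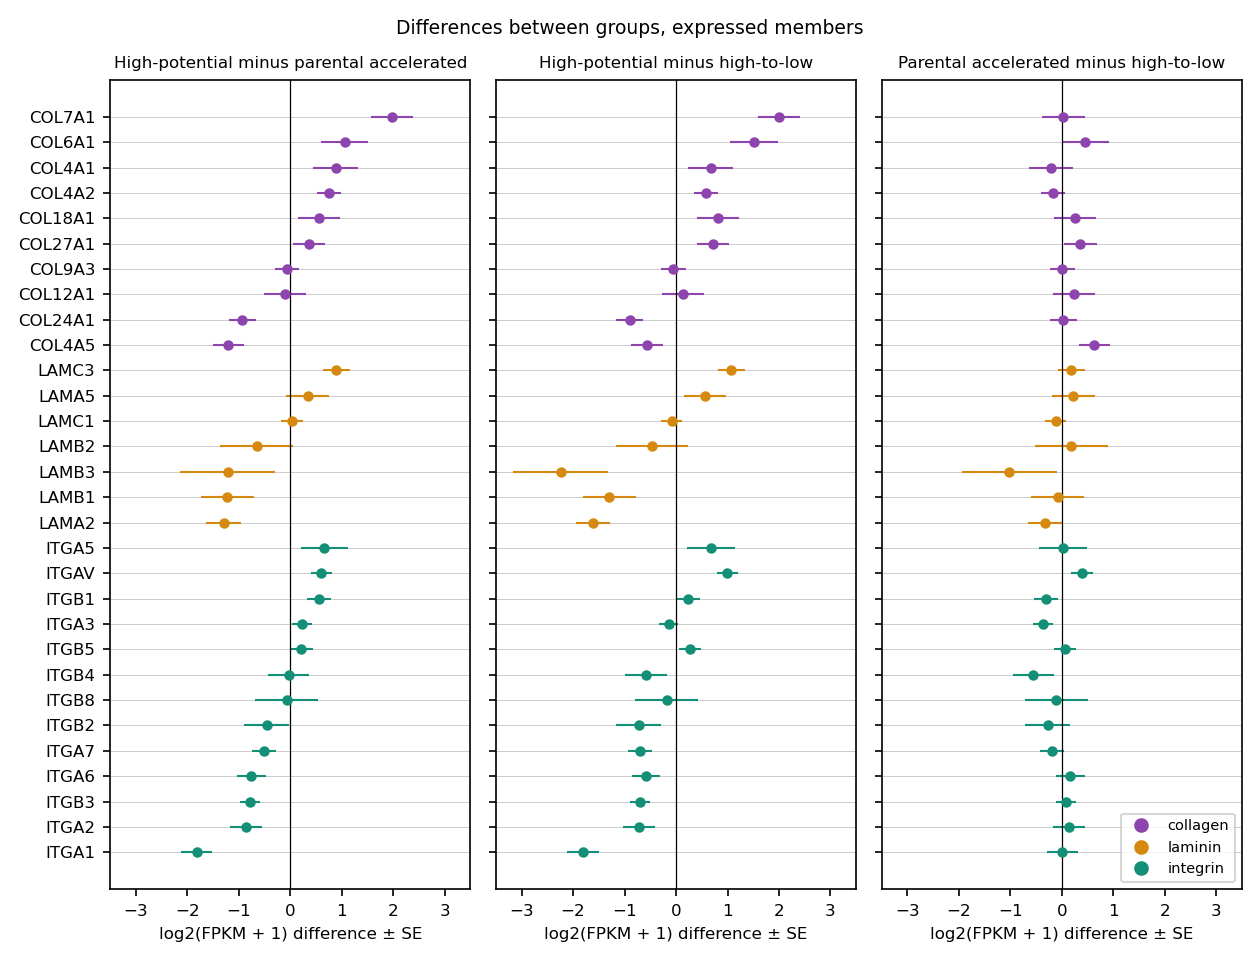
Differences in log2(FPKM + 1) between groups for the expressed genes reported here, as points with the limma standard error, ordered within each family by the first panel. In the first and second panels values reach from -2.24 to 2.004, and in the third from -1.02 to 0.64.

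The 44 silent genes held most of the interstitial matrix. Of 33 silent collagens, COL3A1, COL5A3, COL6A3, COL6A5, COL15A1, COL20A1, COL22A1 and COL25A1 (8) were listed at 0 in all libraries. Another 23 stayed at or below 0.534 FPKM: COL1A1, COL1A2, COL2A1, COL4A3, COL4A4, COL4A6, COL5A1, COL5A2, COL6A2, COL6A6, COL8A2, COL9A1, COL10A1, COL11A1, COL11A2, COL13A1, COL14A1, COL16A1, COL17A1, COL19A1, COL21A1, COL23A1 and COL28A1. The silent laminins were LAMA1, listed at 0 throughout, LAMA3, LAMA4 and LAMB4. The silent integrins were ITGA8, listed at 0 throughout, ITGA4, ITGA9, ITGA10, ITGA11, ITGB6 and ITGB7. A value of 0 says only that the gene is listed at 0.

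COL9A2 and COL8A1 lay just outside the rule for expression, with 1 library each at 1 FPKM. COL9A2, a chain of cartilage collagen IX, was 0.832 and 18.1 FPKM in high-potential cells, 0.0372 and 0.419 in parental and 0.0645 and 0.0741 in high-to-low cells, so that value rests on high-potential replicate 2. COL8A1 was 1.16 and 0.599 FPKM in high-potential cells and 0.371 to 0.528 in the others. Just inside the rule, with 2 libraries at 1 FPKM, were COL7A1, COL12A1, LAMC3, ITGA2 and ITGB2. COL5A1, a silent collagen named after its values were seen, was 0.331 and 0.534 FPKM in high-potential cells, at 0 in both parental libraries, and 0.0103 and 0.0118 in high-to-low cells. In a fit with no filter its log2 differences were 0.51 and 0.50 (SE 0.0794 and limma adjusted p = 0.103 and 0.0924).

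Of the enzymes that modify and process collagen, 16 of 20 listed genes were expressed and PLOD2 and LOXL4 passed the test. PLOD2, a lysyl hydroxylase that prepares collagen ends for stable crosslinks, was 6.85 and 5.62 FPKM in high-potential, 36.0 and 30.6 in parental and 45.7 and 37.1 in high-to-low cells. It passed as lower, with log2 differences of -2.25 (SE 0.211 and limma adjusted p = 0.0166) and -2.55 (SE 0.211 and limma adjusted p = 0.0107). The sister genes PLOD1 and PLOD3 were 41.4 to 72.5 and 31.5 to 51.7 FPKM and did not pass. LOXL4, a lysyl oxidase that makes such crosslinks, was 15.2 and 21.2 FPKM in high-potential, 1.10 and 3.45 in parental and 0.982 and 1.52 in high-to-low cells. It passed against high-to-low cells (3.08, SE 0.399 and limma adjusted p = 0.0368) and not against parental accelerated cells (2.63, SE 0.399 and limma adjusted p = 0.0674). Leaving out any library of the groups compared ended the PLOD2 call, with adjusted p between 0.0632 and 0.2497 against parental accelerated and between 0.0567 and 0.177 against high-to-low cells, and the LOXL4 call (0.178 to 0.302). At an unadjusted limma p under 0.05 there were 5, 6 and 0 of 16, against 14.3%, 18.4% and 0.972% of all symbols. In the third comparison 0 of 16 passed, with PLOD1 and P4HA2, a prolyl hydroxylase, of lowest p.

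Of 14 other basement membrane genes 8 were expressed, and 1 passed in each comparison with the high-potential group, 0 in the third. At an unadjusted limma p under 0.05 there were 4, 4 and 0 of 8, against 14.3%, 18.4% and 0.972% of all symbols. The gene that passed is SPARC, a collagen-binding matricellular protein, at 74.9 and 100 FPKM in high-potential cells and at most 0.325 in the others (log2 differences of 6.39 and 6.23, SE 0.258 and limma adjusted p = 0.00036 and 0.000595). SPARC reached 1 FPKM in the high-potential group alone, so it entered the test through the group where it is high and its call is a description. The other genes of this list at an unadjusted limma p under 0.05 were all lower in high-potential cells. Their log2 differences ran from -1.93 to -0.62. In the third comparison DAG1, the laminin receptor dystroglycan, and FRAS1 had the lowest p.

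Among 27 genes of the integrin adhesome, the proteins that join integrins to actin and signalling, 23 were expressed and 0 passed in any comparison by limma. At an unadjusted p under 0.05 there were 0, 2 and 1 of 23 in the 3 comparisons. Of all symbols, 14.3%, 18.4% and 0.972% reached it. ZYX, the focal adhesion protein zyxin, was 54.2 and 80.7 FPKM in high-potential and 36.9 and 48.7 in parental cells (0.63, SE 0.271 and limma adjusted p = 0.367). PARVB, a parvin, was 1.92 and 1.10 against 3.26 and 4.45 FPKM in high-to-low cells (-0.96, SE 0.364 and limma adjusted p = 0.241), beside DDR2, a collagen receptor kinase, at -0.99 (SE 0.399 and limma adjusted p = 0.263). SRC, a kinase of focal adhesions, and TLN1, the integrin activator talin, had the lowest p between parental and high-to-low cells. Their differences there were 0.71 and 0.25.

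Of 12 other adhesive ligands 6 were expressed and 0 passed by limma, with 1, 1 and 0 at an unadjusted p under 0.05. The shares of all symbols at that p were 14.3%, 18.4% and 0.972%. FN1, fibronectin, was 2.37 and 7.29 FPKM in high-potential, 1.69 and 0.698 in parental and 1.08 and 0.913 in high-to-low cells (1.31 and 1.40, SE 0.466 and limma adjusted p = 0.281 and 0.195). CYR61 and CTGF, secreted proteins that bind integrins, were 102 to 232 and 97.9 to 265 FPKM over all libraries. Of 14 matrix proteases and inhibitors 4 were expressed and 0 passed by limma. At an unadjusted p under 0.05 there were 0, 1 and 0, beside the same shares of all symbols. The inhibitors TIMP1, at 176 to 199.7 FPKM, and TIMP2, at 4.84 to 7.98, were expressed in every library, as was the membrane protease MMP24 at 1.82 to 6.77, while the collagenases MMP1 and MMP13 were listed at 0 throughout.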

How the data were processed

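FPKM values, 1 per gene symbol and library, are as the authors deposited them. TopHat2 2.0.13, Cuffnorm 2.2.1 and build hg19 are listed in the submitters' processing notes. Annotation and scaling method: not given in the sources used here. Per the labels' protocols, cDNA was made with a SMART-Seq v4 kit and libraries with a Nextera kit, a route that does not record strand, so genes that overlap, antisense ones included, cannot be told apart. Relative depth was estimated from the ratios of values under 0.3 FPKM.

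Symbols with at least 1 FPKM in at least 2 of 6 libraries were transformed to log2(FPKM + 1) and fitted in 1 limma model with a variance trend over the 3 groups (limma 3.58.1, R 4.3.3, 3 residual degrees of freedom), with two-sided Benjamini-Hochberg adjusted p over 12135 symbols and a threshold of 0.05. The step was tested on simulated data. Genes named are those past the threshold, or with an unadjusted p under 0.05 and no overlap of libraries, the 3 of highest mean in each family, the type IV pairs, and from each of 5 pathway lists those past the threshold or else the 2 of lowest p. COLGALT1 of these lists was not matched by symbol. Members, lists and tests were chosen with earlier results of these data known. Promoters and gene starts are from RefSeq (GRCh38.p14), of another build than the files, matched by symbol for 22 of 31 expressed and 32 of 44 silent genes. In total 15 alternative settings were run. The counts, medians and sums cover all members, and the values of an expressed laminin gene are not reported here.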

Additional observations from a re-analysis of the deposited data

How the results depend on the processing

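The count of expressed collagen, laminin and integrin genes that passed was 0 in each comparison, and it stayed 0 with a pseudocount of 0.1, no filter, a mean of at least 3 FPKM, median ratio scaling, quantile normalization, no variance trend, only the groups compared in the fit, and without any 1 library (0 to 0). With a term for the replicate number (the replicate block) it was 2 between high-potential and parental accelerated cells (ITGA1 and LAMB1), 6 between high-potential and high-to-low cells (COL7A1, COL18A1, ITGA1, ITGAV, LAMA2 and LAMB1) and 0 in the third comparison. No label calls the number a pairing; deviations of same-numbered libraries correlated at 0.187, 0.158 and 0.281 between the groups. Over all symbols the block moved the calls from 60 to 546, from 97 to 944, and left 2. With a term for the start of the code in the description the count was 1 between high-potential and parental accelerated cells (ITGA1). Over all symbols that term moved the calls from 60 to 105 and from 97 to 54. The causes were not tested.

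Over 28 differences of named genes and 15 settings, 370 of 393 values kept their direction and their side of the threshold, 16 lost a call (of PLOD2 and LOXL4), 7 gained one and 0 reversed. LOXL4 lost its call with a pseudocount of 0.1, no filter, a mean of at least 3 FPKM and quantile normalization as well (adjusted p 0.0510 to 0.0750). The 28 differences were those past the threshold, or with an unadjusted p under 0.05 and no overlap of libraries. That choice itself favours a stable direction. Other differences did reverse: those of LAMB3, LAMB2, ITGB8, ITGB4 and ITGA5 from parental accelerated cells, without replicate 1 of that group. A single fragment is worth more FPKM on a short transcript, so values near 0.1 FPKM or below rest on few fragments. With 2 libraries a group, an arm left with 1 library is assumed to vary like the others.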
